A study of Homo sapiens with 28 samples.

Results

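The genes described are 10 intermediate filament genes, *VIM*, *KRT7*, *KRT8*, *KRT18*, *KRT19*, *KRT23*, *KRT34*, *KRT80*, *KRT81* and *NES*, out of 62703 genes counted by RNA-seq. They were chosen on measured values of these same libraries, and the fall of *KRT34* in the knockout clones was part of that choice. That fall is therefore described without a test. RNA-seq covered 24 libraries from 2 human colorectal cancer (CRC) cell lines, in 8 groups of 3. MDST8, a mesenchymal CMS4 line, gave 3 WT libraries and 3 from each of 5 TWIST1 knockout clones, named 1.1, 2.2, 3.2, 3.5 and 3.6. The sample titles give clones 3.2, 3.5 and 3.6 the same name, clone TG3, and they were told apart by library names. Whether they share a guide RNA is not stated in the labels, so the 5 clones need not stand for 5 guides. Each clone grew from 1 sorted cell after electroporation of Cas9 with guide RNAs, and no single-cell-derived clone without the knockout is among these samples, so clonal derivation and the knockout cannot be told apart. LoVo, an epithelial non-CMS4 line, gave 3 libraries labelled TWIST1 shRNA and 3 labelled shRNA control, called knockdown-labelled and control below. TWIST1 ChIP-seq gave 1 peak list per line.

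Intermediate filaments are the third cytoskeletal system beside actin and microtubules. Keratins are obligate heteropolymers, in which a type I chain (*KRT18*, *KRT19*, *KRT23* and *KRT34* here) pairs with a type II chain (*KRT7*, *KRT8*, *KRT80* and *KRT81*), and *KRT8* with *KRT18* is the basic pair of simple epithelia. Vimentin, encoded by *VIM*, forms filaments on its own and marks mesenchymal cells. Nestin, from *NES*, co-assembles with vimentin and marks progenitor cells. *KRT34* and *KRT81* belong to the hair keratins. In colonic epithelium *KRT8*, *KRT18*, *KRT19* and *KRT20* are the usual keratins, and loss of keratins with gain of vimentin is a standard readout of epithelial-mesenchymal transition (EMT), the program that TWIST1 drives.

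The upstream sequences of *KRT34*, *VIM* and *NES* are shown because the results turn on these genes and a TWIST1 peak lies within 3000 bp of each in MDST8. Such a peak is common, at 70.8% of protein-coding genes, and no listed peak of these genes overlaps the bases shown. The sequences are the 250 bases before the start of the gene on its own strand (RefSeq, GRCh38.p14), with capitals marking CANNTG, the E-box core that basic helix-loop-helix factors such as TWIST1 recognise.
KRT34 (chr17:41382307-41382556, minus strand): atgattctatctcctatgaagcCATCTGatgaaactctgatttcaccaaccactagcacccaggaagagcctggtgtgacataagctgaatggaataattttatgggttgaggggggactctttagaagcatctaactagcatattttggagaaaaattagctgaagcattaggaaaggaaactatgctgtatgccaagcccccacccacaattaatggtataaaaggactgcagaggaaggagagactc
VIM (chr10:17227991-17228240, plus strand): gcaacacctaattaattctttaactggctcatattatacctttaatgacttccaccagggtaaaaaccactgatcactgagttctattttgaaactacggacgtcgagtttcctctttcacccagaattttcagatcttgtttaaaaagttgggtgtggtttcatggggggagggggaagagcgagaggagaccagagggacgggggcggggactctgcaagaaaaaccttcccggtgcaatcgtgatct
NES (chr1:156677408-156677657, minus strand): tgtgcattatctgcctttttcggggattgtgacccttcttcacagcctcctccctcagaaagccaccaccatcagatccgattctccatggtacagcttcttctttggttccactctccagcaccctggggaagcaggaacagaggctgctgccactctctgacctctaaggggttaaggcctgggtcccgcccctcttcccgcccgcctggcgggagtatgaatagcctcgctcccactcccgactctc
The *KRT34* window holds 1 CANNTG match, CATCTG, starting at position -228 from the gene start. The *VIM* and *NES* windows hold 0. Over 35116 promoter windows of the same length, 61.8% hold CANNTG and 12.2% hold CATCTG or its reverse complement CAGATG, both strands read and CATCTG counted within CANNTG. The table of promoters held 4 of the 10 genes, and its *KRT8* entry starts at another place than the counted gene and is not shown.

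TWIST1 itself was read first. TWIST1 transcripts were counted at 845, 1034 and 797 in WT MDST8, at 724 to 740 in clone 1.1, 553 to 595 in clone 2.2, 924 to 1195 in clone 3.2, 635 to 824 in clone 3.5 and 898 to 1010 in clone 3.6. Editing of a coding sequence need not lower the transcript, so these counts do not check the knockout. In LoVo they ran against the labels, with counts of 0, 0 and 0 in the control and 73, 89 and 93 in the knockdown-labelled libraries. Directions in LoVo below follow the labels.

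Total counts per library ran from 16567606 to 22217009. Epithelial markers separated the lines: their summed level was 0.155 to 1.79 CPM (counts scaled to a common library total) in the MDST8 libraries, with *GRHL2* at 0 in each of the 6 MDST8 groups, against 1322 to 2207 CPM in LoVo, where 10 of 10 markers reached 1 CPM. In the knockdown-labelled libraries the summed epithelial level, 1322 to 1458 CPM, lay below the 2137 to 2207 CPM of the control. Of 6 immune markers, 0 reached 1 CPM in MDST8, and 2 did in the LoVo control and 1 in the knockdown-labelled libraries, with sums of 18.1 to 21.1 and 8.93 to 9.49 CPM. Of 3 endothelial markers 0 reached it in any group. Summed mesenchymal markers, a list without *VIM*, were at 9042 to 9565 CPM in WT, 12660 to 15980 CPM in clones 1.1, 2.2, 3.2 and 3.5 and 9464 to 10360 CPM in clone 3.6, and went from 254 to 273 CPM in the LoVo control to 201 to 224 CPM in the knockdown-labelled libraries. Although this sum fell in LoVo, the markers that reached 1 CPM there went from 6 to 8 of 10. Summed fibroblast markers reached 310 to 1314 CPM in MDST8, 2.83 to 5.11 CPM in the LoVo control and 53.0 to 79.4 CPM in the knockdown-labelled libraries, and the part of these lists in the results was not tested. Knockdown-labelled replicate 1 stood apart, with 10.9% of its counts on mitochondrial genes against 5.47 to 6.24% in the other 2 and 3.49 to 3.96% in the controls. The number of the 10 genes called in LoVo, 6, was the same without it.

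The 2 lines carry opposite filament sets. As RPKM (CPM divided by the exon length in kilobases, the scale used wherever genes are compared with each other), WT MDST8 had *VIM* at 671 ± 18.6 (SD, n = 3), followed by *KRT18* at 19.9 ± 0.693 and *KRT34* at 6.24 ± 0.275, while *KRT8* reached 1.62 ± 0.171. LoVo control libraries had *KRT8* at 652 ± 11.3 RPKM, *KRT18* at 610.5 ± 13.2 and *KRT19* at 279 ± 13.9, and *VIM* at 21.4 ± 0.575. Thus *VIM* led in MDST8 and the simple-epithelial pair led in LoVo. Tested between WT MDST8 and the LoVo control by edgeR's quasi-likelihood test, 1 of the 9 genes other than *KRT34* was called higher in MDST8 and 7 lower, and *KRT23* was not called. Across the 15844 genes tested, 33.4% were called higher and 33.1% lower. The log2 differences were 4.97 for *VIM* and, on the lower side, -10.94 for *KRT19*, -8.65 for *KRT8*, -4.94 for *KRT18*, -4.17 for *KRT81*, -3.35 for *KRT7*, -2.56 for *KRT80* and -1.97 for *NES*. For these 8 genes the 3 libraries of each line did not overlap, and the adjusted p was at most 6.05e-13. *KRT7*, *KRT19*, *KRT23* and *KRT81* entered this test through LoVo, since they lay below the filter on low counts (a geometric mean of 1 RPM over the libraries of a line) in MDST8. *KRT34*, whose WT level was part of the choice, stood 1.20 higher in MDST8 on the log2 scale and has no test here. The line and the table it was deposited in cannot be told apart.

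**Figure D1:**
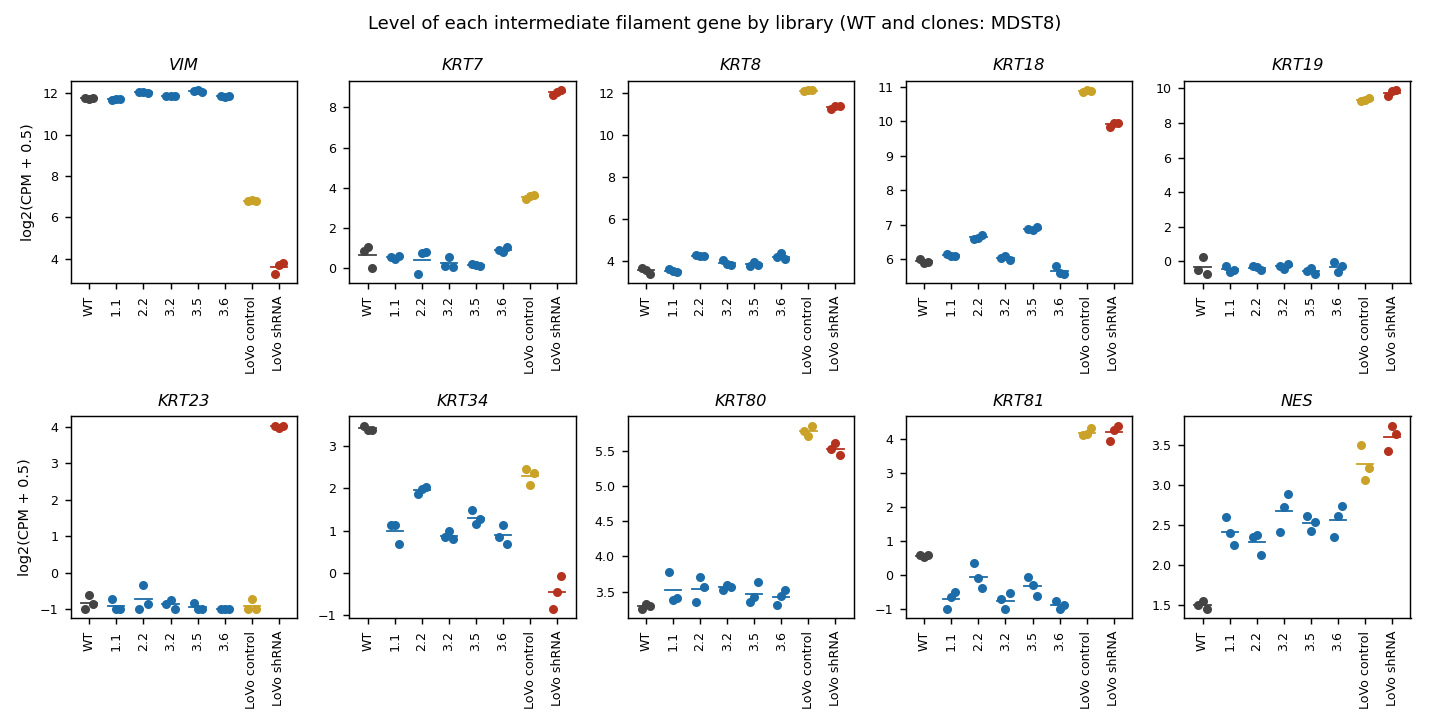
Level of each of the 10 genes on a log2(CPM + 0.5) scale, 1 point per library and a line at the mean of the 3 libraries; black, WT MDST8, blue, the 5 clones, gold, LoVo shRNA control, red, LoVo knockdown-labelled. *KRT34* is at 9.87 to 10.7 CPM in WT against at most 3.6 CPM in any clone library, and *KRT7* and *KRT23* stand out in the knockdown-labelled libraries.

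*KRT34*, a type I hair keratin at chr17:41377669-41382306 in hg38, was the gene by which the set was chosen. Its counts were 202, 195 and 198 in WT libraries, 32, 36 and 21 in clone 1.1, 61, 71 and 68 in clone 2.2, 24, 33 and 26 in clone 3.2, 39, 33 and 38 in clone 3.5, and 29, 34 and 24 in clone 3.6. Every WT library lay above every clone library, and clone 2.2 kept the most. The mean level was 10.2 ± 0.449 CPM in WT, 3.41 ± 0.233 CPM in clone 2.2, 1.99 ± 0.277 CPM in clone 3.5, 1.50 ± 0.336 CPM in clone 1.1, 1.37 ± 0.290 CPM in clone 3.6 and 1.35 ± 0.121 CPM in clone 3.2, and the last 3 overlapped each other. As a description, the log2 fold changes against WT were -2.76 ± 0.183 (SE) in clone 1.1, -1.59 ± 0.162 in clone 2.2, -2.91 ± 0.185 in clone 3.2, -2.37 ± 0.177 in clone 3.5 and -2.89 ± 0.184 in clone 3.6. The 5 values share the same 3 WT libraries. On the scale of limma with log2(RPM + 1), where low genes are drawn toward 0, they ran from -2.29 to -1.38.

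The choice of *KRT34* named its fall in the clones and not LoVo, although LoVo values were known when the genes were chosen. Its counts were 81, 73 and 81 in the control and 1, 4 and 8 in the knockdown-labelled libraries, and the groups did not overlap. The level went from 4.45 ± 0.655 CPM to 0.244 ± 0.197 CPM, a log2 fold change of -4.14 ± 0.407, which edgeR called lower. *KRT34* passed the filter in LoVo through the control libraries alone and was chosen on these data, so this call is a description. The exact permutation test gave p = 0.10, the smallest value that 3 libraries against 3 can give. By its counts *KRT34* was lower in the knockdown-labelled libraries, which are the LoVo libraries with TWIST1 counts above 0.

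Other hair keratin transcripts were then read beside it. *KRT33B*, a type I hair keratin at chr17:41363498-41369813 in the same cluster as *KRT34*, was named after its values were seen. It had 65, 66 and 55 counts in WT and 11 to 30 in the clone libraries, without overlap, and its log2 fold changes were -1.72 ± 0.246, -1.11 ± 0.229, -2.17 ± 0.259, -1.59 ± 0.245 and -2.33 ± 0.262 in clones 1.1, 2.2, 3.2, 3.5 and 3.6. These are given as a description, since the gene was picked for them and since clones 1.1, 3.2 and 3.6 lay below the filter on their own. In LoVo *KRT33B* had 13, 13 and 15 counts in the control and 0, 1 and 0 in the knockdown-labelled libraries, below the filter on low counts. The transcripts of *KRT34* share 7.12% of their 50-base words with those of *KRT33B*, 5.36% with *KRT33A* and 4.48% with *KRT31*. Reads from the shared stretches are not counted where they map to several places, and how far the gene counts borrow from each other was not tested.

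*KRT81*, a type II hair keratin, lay below the filter in MDST8, so it was tested there only in the alternative without a filter, at few counts. WT libraries had 19, 19 and 20 counts, and the clones had 0, 3 and 4 (clone 1.1), 15, 9 and 5 (clone 2.2), 2, 0 and 4 (clone 3.2), 8, 6 and 3 (clone 3.5) and 2, 0 and 1 (clone 3.6). Every clone library was below every WT library. The WT to clone ratio of summed counts was 8.40 (95% exact interval 3.83 to 21.8) for clone 1.1, 2.01 (1.27 to 3.26) for clone 2.2, 10.2 (4.40 to 28.8) for clone 3.2, 3.26 (1.87 to 5.96) for clone 3.5 and 21.1 (6.87 to 105) for clone 3.6, intervals that cover counting error only. Without the filter, edgeR called it lower in clones 1.1, 3.2, 3.5 and 3.6, with log2 fold changes of -3.02, -3.26, -1.69 and -4.25 (adjusted p at most 0.00658), and not in clone 2.2, at -1.01 (adjusted p = 0.143). In LoVo, where *KRT81* stood at 17.9 ± 1.36 CPM in the control and 18.1 ± 2.97 CPM in the knockdown-labelled libraries, the log2 fold change was 0.04 ± 0.118 (adjusted p = 0.755) and the groups overlapped. *KRT81* shares 38.4% of its 50-base words with *KRT86*, its neighbour in the type II cluster, so its counts leave out reads that fit both. *KRT86* itself had 0 to 6 summed counts in the MDST8 groups.

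*NES* was the gene called in each clone. Counts were 44, 48 and 44 in WT, 105, 102 and 81 in clone 1.1, 89, 96 and 73 in clone 2.2, 88, 137 and 145 in clone 3.2, 96, 92 and 105 in clone 3.5 and 101, 113 and 133 in clone 3.6. The lowest clone library exceeded the highest WT library. The level rose from 2.33 ± 0.103 CPM to between 4.38 ± 0.449 CPM in clone 2.2 and 5.98 ± 1.07 CPM in clone 3.2, and neighbouring clones in this order overlapped. The log2 fold changes were 1.06 ± 0.178, 0.90 ± 0.181, 1.36 ± 0.172, 1.17 ± 0.177 and 1.22 ± 0.174 in clones 1.1, 2.2, 3.2, 3.5 and 3.6 (edgeR, adjusted p at most 6.68e-05). The clones were not shown to differ among themselves (F test, adjusted p = 0.0763), although they were called different without replicate A of clone 1.1 (0.049), of clone 3.2 (0.0229) or of clone 3.6 (0.0401), and the adjusted p reached 0.246 without replicate C of clone 3.2. In LoVo *NES* stood at 9.16 ± 1.53 CPM in the control and 11.7 ± 1.37 CPM in the knockdown-labelled libraries, with overlap, at 0.39 ± 0.146 on the log2 scale and not past the fold threshold.

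*VIM* remained the leading filament gene of every MDST8 group. Its level was 3544, 3365 and 3516 CPM in WT, and the group means were 3345 ± 30.8 CPM in clone 1.1, 4256 ± 93.9 CPM in clone 2.2, 3735 ± 37.7 CPM in clone 3.2, 4427 ± 139 CPM in clone 3.5 and 3712 ± 69.6 CPM in clone 3.6. Clone 1.1 overlapped WT and the other 4 clones lay above it. None of the 5 was called, because the log2 fold changes, -0.06 ± 0.0323, 0.28 ± 0.0323, 0.10 ± 0.0323, 0.34 ± 0.0324 and 0.10 ± 0.0323, stayed under 0.58, although the adjusted p was 3.57e-09 in clone 2.2 and 3.4e-11 in clone 3.5. The clones differed from each other (F test, adjusted p = 9.86e-13). In LoVo *VIM* fell: 1760, 2236 and 1910 counts in the control stood against 175, 216 and 239 in the knockdown-labelled libraries. The level went from 111 ± 2.98 CPM to 11.7 ± 2.25 CPM, a log2 fold change of -3.22 ± 0.0997 (edgeR, adjusted p = 2.68e-14). In bulk RNA a fall of this kind cannot tell fewer cells with a transcript from less transcript per cell.

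**Figure D2:**
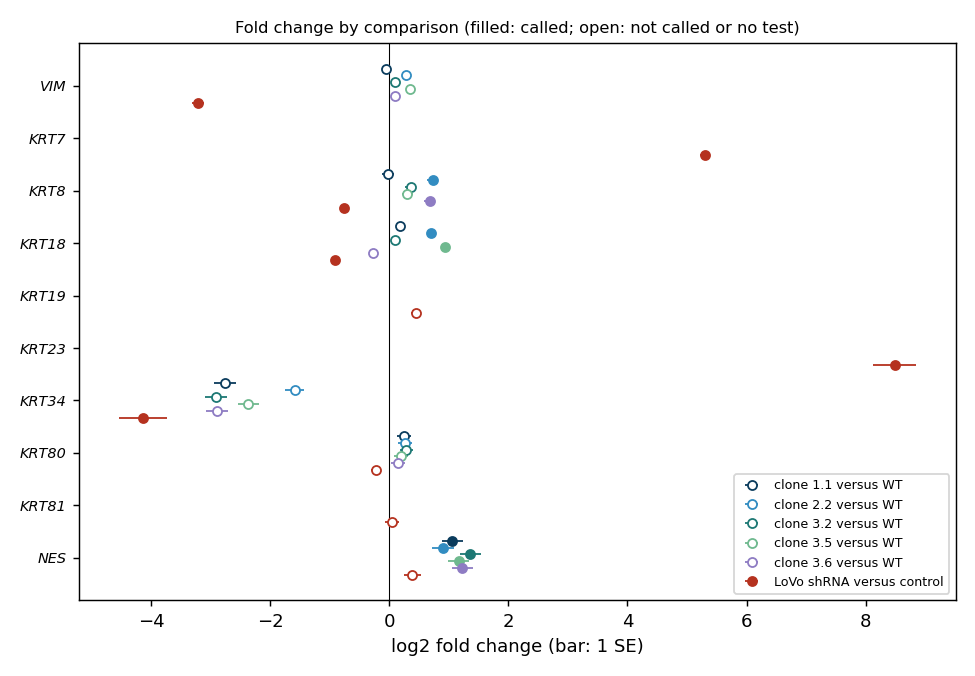
Log2 fold change of each gene in 6 comparisons, with a bar of 1 SE; filled points were called and open points were not called or, for *KRT34* in the clones, were not tested, and a missing point lay below the filter. *NES* has 5 filled points right of 0, *KRT34* has its 6 points left of 0, and *VIM* stays between -0.06 and 0.34 in the clones and at -3.22 in LoVo.

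The simple-epithelial pair was called higher in some clones. *KRT18* counts were 1195, 1173 and 1188 in WT and 1860, 1998 and 1965 in clone 2.2, and 1995, 2152 and 2395 in clone 3.5, with no overlap. The log2 fold changes were 0.69 ± 0.0499 in clone 2.2 and 0.94 ± 0.0495 in clone 3.5 (edgeR, adjusted p at most 6.03e-14), and 0.18 ± 0.0514, 0.10 ± 0.0515 and -0.27 ± 0.0526 in clones 1.1, 3.2 and 3.6, which were not called. *KRT8* had 231, 224 and 196 counts in WT, 372, 370 and 348 in clone 2.2, and 386, 401 and 349 in clone 3.6. It was called higher in clone 2.2, at 0.72 ± 0.0931, and in clone 3.6, at 0.68 ± 0.0927 (adjusted p at most 6.86e-08), and stood at -0.02 ± 0.0998, 0.36 ± 0.0957 and 0.30 ± 0.0974 in clones 1.1, 3.2 and 3.5. Both genes differed among the 5 clones (F test, adjusted p = 6.81e-21 for *KRT18* and 2.57e-08 for *KRT8*).

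The ratio of the 2 partners varied between groups. The number of *KRT8* counts per *KRT18* count was 0.183 ± 0.016 (SD, n = 3) in WT, 0.159 ± 0.0067 in clone 1.1, 0.187 ± 0.012 in clone 2.2, 0.220 ± 0.017 in clone 3.2, 0.118 ± 0.0097 in clone 3.5 and 0.356 ± 0.05 in clone 3.6. Clone 3.6, at 0.315 to 0.412 per library, and clone 3.2, at 0.207 to 0.239, lay above the 0.165 to 0.193 of WT, and clone 3.5, at 0.112 to 0.129, lay below. LoVo had 2.39 ± 0.018 in the control and 2.66 ± 0.056 in the knockdown-labelled libraries. The genes lie head to head on chromosome 12 and share 525 exon bases, 17.1% of those counted for *KRT18* and 7.63% of those for *KRT8*, and fragments that overlap both genes are not counted. Summed counts on 51 *KRT8* pseudogenes ran from 181 to 293 per library in both lines, about as many as *KRT8* itself in MDST8. Of the 50-base words of *KRT8*, 9.43% occur in those pseudogenes, and of *KRT18* 15% occur in its own.

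**Figure D3:**
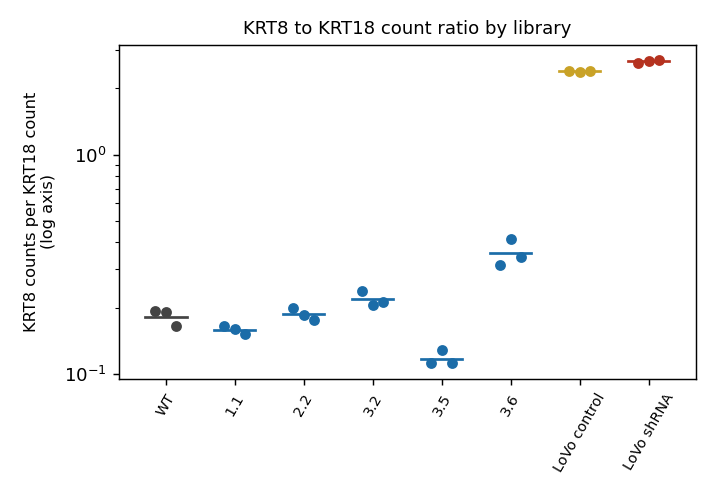
Number of *KRT8* counts per *KRT18* count in each of the 24 libraries (log axis), with a line at the group mean of 3. MDST8 libraries lie between 0.112 and 0.412 and LoVo libraries between 2.37 and 2.70.

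In LoVo both genes of the pair fell. *KRT8* went from 71353, 88846 and 78866 counts in the control to 45831, 45661 and 48114 in the knockdown-labelled libraries, at -0.77 ± 0.0663 on the log2 scale (edgeR, adjusted p = 1.64e-08). *KRT18* went from 29714, 37445 and 32778 counts to 17634, 17009 and 17796, at -0.92 ± 0.0608 (adjusted p = 5.12e-10). *KRT19*, the smallest type I keratin, stood at 653 ± 32.5 CPM in the control and 871 ± 109 CPM in the knockdown-labelled libraries, at 0.44 ± 0.0789, which missed the fold threshold although the groups did not overlap. In MDST8 *KRT19* had 2 to 13 counts per library and lay below the filter.

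*KRT7* and *KRT23* rose in the knockdown-labelled libraries. *KRT7*, a type II keratin of ductal and glandular epithelia, had 165, 224 and 210 counts in the control and 7533, 7564 and 8328 in the knockdown-labelled libraries, a log2 fold change of 5.30 ± 0.0869 (edgeR, adjusted p = 2.53e-17), which took it from 2.80 ± 0.241 to 108 ± 9.14 RPKM. *KRT23*, a type I keratin, had 0, 2 and 0 counts against 304, 259 and 285. The ratio of its summed counts was 417 (95% exact interval 115 to 3450), and the gene passed the filter through the libraries in which it is high. In MDST8 *KRT7* had 6 to 33 counts and *KRT23* 0 to 6 counts per library, and the groups overlapped. *KRT80*, a type II keratin, was not called in any clone or in LoVo: it stood at 9.28 ± 0.254 CPM in WT and 10.2 to 11.3 CPM in the clones, and in LoVo at 54.7 ± 2.87 CPM in the control and 45.7 ± 2.63 CPM in the knockdown-labelled libraries (-0.23 ± 0.0722).

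Counted over the 10 genes, the knockdown-labelled libraries had 2 called higher and 4 called lower, beside 26.6% and 26.1% of all 14270 genes tested. Of these calls, *KRT23* and *KRT34* passed the filter through 1 of the 2 groups only, which left 1 higher and 3 lower among the 8 genes that passed in both. In MDST8, 5 of the 9 genes other than *KRT34* passed the filter. Of these, 1 was called higher in clone 1.1, where 12% of 13706 genes were, 3 in clone 2.2 (8.05%), 1 in clone 3.2 (10.9%), 2 in clone 3.5 (11.2%) and 2 in clone 3.6 (15.3%). None of the 5 was called lower, beside 7.49%, 6.64%, 6.09%, 7.25% and 11.7% of all genes, and DESeq2 called 0 lower as well. At an unadjusted p under 0.05 edgeR had 1 lower in clone 3.6, *KRT18*, and 0 in each other clone. That *KRT18* change, the -0.27 given above, also had an adjusted p of 2.52e-05 and missed only the fold threshold. Among the 5 clones 3 of these 5 genes differed, where 81% of all genes tested did. The difference between the LoVo effect and the mean effect of the clones was called for 8 of the 9 genes other than *KRT34*, beside 69.3% of 15844 genes, with *KRT7*, *KRT23* and *KRT81* among the 8 although they passed the filter in LoVo only. Calls were thus common among all genes in these comparisons.

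The other 60 intermediate filament genes were mostly silent in MDST8, where 8 passed the filter. In the clones 0 to 2 of the 8 were called higher, where 8.05 to 15.3% of all genes were, and 1 or 2 lower, where 6.09 to 11.7% were. *BFSP1*, a filament gene of the eye lens, was called higher in clones 1.1, 2.2, 3.2 and 3.6, at 1.34, 0.60, 1.38 and 1.31 on the log2 scale. *SYNM*, synemin, was called higher in clone 2.2, at 0.66. The lamins gave *LMNB1* lower in clone 3.5, at -0.69, and *LMNB2* lower in clone 3.6, at -0.71. The remaining lower calls, 1 in each clone, were *KRT33B*, named after its values were seen. In clones 1.1, 3.2 and 3.6 it passed the filter through WT only. The other 7 genes in these clones held 1, 1 and 1 higher and 0, 0 and 1 lower. The list's median log2 fold change ran from -0.115 to 0.0397 over the clones, where that of all genes lay between -0.0144 and 0.00278. In LoVo 17 of the 60 passed, of which 11 were called higher and 4 lower, beside 26.6% and 26.1% of all genes, with a list median of 1.1 where that of all genes was 0.00972. Of these 17, 6 passed through 1 of the 2 groups only (*KRT4*, *KRT5*, *KRT6A*, *KRT16*, *KRT38* and *DES*), and the other 11 held 8 higher and 1 lower.

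The lower calls in LoVo were the keratins *KRT4*, *KRT38*, *KRT20* and *KRT5*. *KRT20*, the keratin of differentiated colonic cells, went from 48.3 ± 1.30 CPM in the control to 2.49 ± 0.387 CPM in the knockdown-labelled libraries, at -4.25 ± 0.115 on the log2 scale. *KRT38*, a hair keratin, went from 211 to 235 counts per library to 0 to 4, and *KRT4*, of stratified mucosa, from 97 to 132 counts to 1 in each library. *KRT5*, of basal cells, fell by 2.12 on the log2 scale. On the other side *KRT6A*, a keratin of activated keratinocytes, rose by 1.97, and *DES*, desmin of muscle, had 0 to 1 counts per library in the control and 48 to 62 in the knockdown-labelled libraries. *KRT15*, a type I keratin of basal cells, rose from 2.28 ± 0.238 to 18.1 ± 1.46 CPM, at 3.01 on the log2 scale. Also called higher were *KRT16* at 2.30, *KRT10* at 1.94, *BFSP1* at 1.92, *PRPH* (peripherin) at 1.89, *KRT13* at 1.37, *KRT86* at 1.095, *LMNB2* at 0.73 and *SYNM* at 0.67, these and *KRT15* named after their values were seen. In MDST8 *KRT4* and *KRT6A* had 0 counts in each of the 6 groups.

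Linkers of intermediate filaments, the plakins and desmosomal proteins, tie filaments to each other and to the membrane. Of 19 such genes 10 passed the filter in MDST8, and 6, 1, 4, 5 and 4 of them were called higher and 1, 1, 1, 0 and 1 lower in clones 1.1, 2.2, 3.2, 3.5 and 3.6. Over all genes 12, 8.05, 10.9, 11.2 and 15.3% were called higher and 7.49, 6.64, 6.09, 7.25 and 11.7% lower. The median log2 fold change of the linkers was 0.736, 0.162, 0.474, 0.602 and 0.178 in the same order, where that of all genes lay between -0.0144 and 0.00278. *DSP*, desmoplakin, which anchors filaments in desmosomes, stood at 3.69 ± 0.732 CPM in WT and 31.8 ± 1.58 CPM in clone 3.5, and was called higher in clones 1.1, 3.2, 3.5 and 3.6, at 1.15, 1.69, 3.1 and 2.81 on the log2 scale (edgeR, adjusted p at most 5.28e-10), and not in clone 2.2, at -0.28. *JUP*, plakoglobin, stood at 1.08 ± 0.157 CPM in WT, 22.3 ± 0.879 CPM in clone 1.1 and 36.0 ± 0.352 CPM in clone 3.5, at 4.36 ± 0.144 and 5.05 ± 0.138, was called lower in clones 2.2 and 3.6, at -0.70 and -1.50, and stood at -0.17 in clone 3.2. In clones 2.2, 3.2 and 3.6 *JUP* lay below the filter on its own and passed through WT only. The other 9 linkers in these clones held 1, 4 and 4 higher and 0, 1 and 0 lower. The 5 clones differed at *JUP* (F test, adjusted p = 2.87e-30).

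The following linkers were named after their values were seen. *PPL*, periplakin, was called higher in clones 1.1, 3.2, 3.5 and 3.6, at 1.42, 2.25, 0.71 and 3.85, and *MACF1*, which also binds actin and microtubules, in the same 4 clones, at 0.80, 0.88, 0.85 and 0.61. *PKP3*, plakophilin 3, was called higher there too, at 1.14, 1.00, 0.67 and 0.71. Desmoglein 2, *DSG2*, was called higher in clone 2.2, at 0.69, and lower in clone 3.2, at -1.97. The other calls were *DST* higher, at 0.67, and *PKP2* lower, at -0.87, both in clone 1.1. In LoVo 6 of 16 linkers tested were called higher and 6 lower, beside 26.6% and 26.1% of all genes. Of these 16, *DSG4* passed the filter through the control libraries only, and the other 15 held 6 higher and 5 lower. *EPPK1*, epiplakin, rose from 1.52 ± 0.0381 to 137 ± 19.3 CPM in the knockdown-labelled libraries, at 6.52 on the log2 scale. *PLEC*, plectin, rose by 1.87, *MACF1* by 1.80, *PPL* by 1.57, *PKP3* by 0.71 and *DST* by 0.66. *DSP* went from 674 ± 21.6 to 255 ± 9.80 CPM in the knockdown-labelled libraries, *DSC3* (desmocollin 3) from 64.9 ± 2.19 to 16.4 ± 1.56 CPM, *DSG4* (desmoglein 4) from 6.71 ± 1.06 to 0.586 ± 0.283 CPM and *EVPL* (envoplakin) from 116 ± 8.50 to 70.0 ± 2.98 CPM, at -1.38, -1.96, -3.46 and -0.70 on the log2 scale, and each was called lower, as were *DSG3* (desmoglein 3), at -3.38, and *PKP2*, at -1.65. *DSC2* (desmocollin 2), at 78.9 ± 5.44 and 74.7 ± 2.47 CPM in LoVo, was not called there and had 0 to 2 counts per library in MDST8. Between the lines 13 of the 16 linkers were called lower in WT MDST8 than in the LoVo control and 3 higher, with a list median of -4.62, beside 33.1% and 33.4% of all genes and a median of 0.00932. Of these 16, 6 passed the filter through the LoVo control only (*EPPK1*, *EVPL*, *DSG3*, *DSG4*, *DSC2* and *DSC3*), and each was called lower. They also enter the list median. The other 10 held 7 lower and 3 higher.

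**Figure D4:**
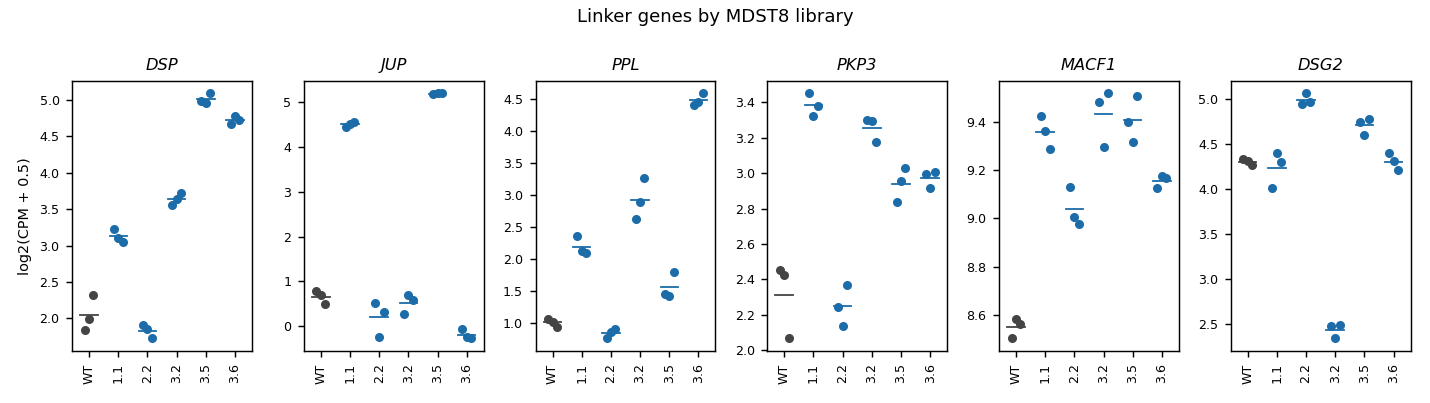
Level of 6 linker genes on a log2(CPM + 0.5) scale in the 18 MDST8 libraries, 1 point per library and a line at the group mean of 3. *JUP* is at 22.3 and 36.0 CPM on average in clones 1.1 and 3.5 and at or below 1.08 CPM in the other groups, while *DSP* is highest in clones 3.5 and 3.6.

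The genes whose level ran closest to *KRT34* over the 18 MDST8 libraries, among 13706 tested, were *SERPINB2* (Pearson r = 0.986), *TTL* (0.984), *ADRM1* (0.977), *STIP1* (0.974) and *TRIM58* (0.972). For *VIM* they were *PXDN* (0.963), *BAIAP2L1* (0.959), *CDH3* (0.957), *PLXDC1* (0.956) and *MANCR* (0.944). Libraries of a group share a clone, so these correlations rest on 6 groups and are descriptions.

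TWIST1 ChIP-seq peaks lay within 3000 bp of the 5′ end of 9 of the 10 genes in MDST8 and of 6 in LoVo, where 70.8% and 57.2% of 20044 protein-coding genes had one. The exception in MDST8 was *KRT80*, and in LoVo *VIM*, *KRT23*, *KRT34* and *KRT81* had none. With p capped at 0.001 the counts were 3 and 1, where 23.2% and 17.3% of protein-coding genes had a peak, and with q capped at 0.05 they were 0 and 0, where 0.469% and 0.359% did. The strongest was a peak shared by *KRT8* and *KRT18*, at chr12:52950545-52950945 in MDST8, with 4.02-fold enrichment and a MACS2 −log10 p-value of 5.42 (−log10 q-value 1.09). Its summit lies in a coding exon of *KRT18*, 863 bp upstream of the 5′ end of *KRT8* and 1946 bp inside *KRT18*. That 5′ end, chr12:52949954, is the outer end of the counted *KRT8* gene. RefSeq starts *KRT8* at chr12:52926469, more than 3000 bp from the peak. LoVo had an overlapping peak at chr12:52950529-52950894, with 2.48-fold enrichment and a MACS2 −log10 p-value of 2.92 (−log10 q-value 0.125). The LoVo control libraries had 0, 0 and 0 TWIST1 counts, and whether the LoVo peaks reflect TWIST1 was not tested. *KRT19* had 2 peaks with 3.75-fold enrichment in MDST8, at chr17:41527433-41528221 in a coding exon and at chr17:41530226-41530831 upstream (−log10 p-values 4.79 and 5.21), although its transcript was near 0 there.

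*KRT34* had 1 peak in MDST8, at chr17:41381159-41381591, with 2.49-fold enrichment, a −log10 p-value of 2.68 and a summit in an intron 978 bp inside the gene. *VIM* had 3 peaks of 2.2- to 2.46-fold enrichment in MDST8, and *NES* 3 of 2.18- to 2.5-fold, with −log10 p-values of 1.98 to 2.53. The 101 bases around the summits of the 2 peaks that bear on the keratin results are shown on the plus strand of hg38, with CANNTG in capitals.
KRT8 and KRT18, MDST8 (chr12:52950767-52950867): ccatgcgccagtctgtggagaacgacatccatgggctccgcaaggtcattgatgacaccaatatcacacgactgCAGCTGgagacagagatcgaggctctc
KRT34, MDST8 (chr17:41381278-41381378): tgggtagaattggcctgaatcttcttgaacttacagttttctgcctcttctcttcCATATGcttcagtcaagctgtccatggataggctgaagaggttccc
Each window holds 1 CANNTG match and 0 of CATCTG or CAGATG. Of 29382 MDST8 peaks on chromosomes 12 and 17, 45.1% hold CANNTG and 7.47% hold CATCTG or CAGATG within the same 101 bases.

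**Figure D5:**
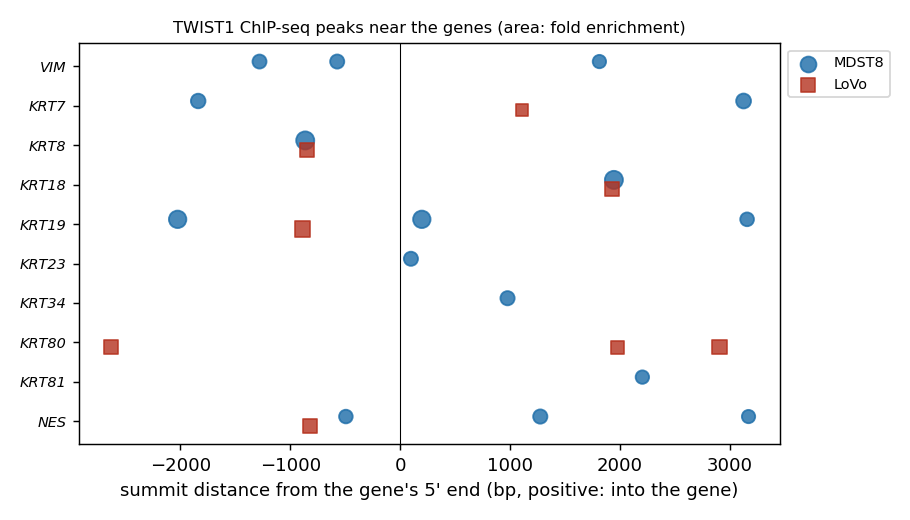
Distance of each TWIST1 peak summit from the 5′ end of the gene in bp, positive into the gene, with the area of the mark set by fold enrichment; circles, MDST8, squares, LoVo. Peaks are scattered on both sides of the start, and the largest mark is the peak shared by *KRT8* and *KRT18*, at 4.02-fold.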

How the data were processed

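RNA-seq covered 24 libraries from MDST8 and LoVo cells, grouped by GEO labels and library names, and TWIST1 ChIP-seq gave 1 peak list per line. The authors deposited raw counts of fragments per gene, made with Trim Galore 0.6.6, HISAT2 2.1.0, SAMtools 1.6 and featureCounts 2.0.0 on GENCODE genes of hg38. Per the file headers, strand was not used although the libraries were directional, and reads that map to several places or overlap several genes were not counted. The deposited tables also hold another value, the exon length in bp, used here for RPKM. The deposited peak lists come from Bowtie2 2.4.5 and MACS2 2.2.7.1 and keep peaks with p below 0.05. They hold a deposited fold enrichment, which is a ratio over local background, and p and q deposited as −log10 values. The deposited score was not used, and another deposited value, the offset in bp, placed the summit. The build of the peak lists is not given in the paper's ChIP-seq methods and was read as hg38, the build named for the series.

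Genes were kept at a geometric mean of RPM + 1, minus 1, of at least 1 over the libraries of a line, so that 13706 genes were tested in MDST8, 14270 in LoVo and 15844 across lines. Counts were scaled by TMM and tested with edgeR 4.0.16 (quasi-likelihood, R 4.3.3), with the 18 MDST8 libraries in 1 fit, the 6 LoVo libraries in another, and all 24 in 1 more for comparisons across lines. Calls needed a log2 fold change beyond 0.58 in either direction and an adjusted p (Benjamini-Hochberg, over all genes tested) below 0.05. The F test among clones and the difference between lines needed the adjusted p alone. CPM values come from the fit of 24 libraries. SE is that of the log2 fold change. Exact permutation tests (two-sided) on log2(CPM + 0.5) compared 3 libraries with 3 and cannot go below 0.10. Nothing says that the 3 libraries of a group came from separate cultures, so p-values measure the spread between libraries, which may be technical. Total counts per library, 16567606 to 22217009, set the precision of low genes. Ratios of summed counts have 95% exact binomial intervals.

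The 10 genes, the lists of 60 filament and 19 linker genes and the tests were chosen with earlier results of these data known. Named were the 10 genes, TWIST1, keratin pseudogenes, from each list the 6 genes with the largest called fold change, and the 5 genes closest to *KRT34* and to *VIM*. Promoter peaks overlap the 3000 bp on either side of the 5′ end of the gene. Alternatives were RLE factors, no filter, DESeq2 1.42.0, limma 3.58.1 on log2(RPM + 1) or log2(count + 1), other samples in the fit, a replicate block, leaving out each library, other peak windows and thresholds and, chosen after seeing the data, the LoVo comparison turned. The tests were checked on simulated data.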

Additional observations from a re-analysis of the deposited data

Results flagged for a closer look

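The fold change in LoVo (knockdown-labelled against control libraries) differed from the mean fold change of the 5 clones against WT for 8 of the 9 genes other than *KRT34*, by a test of the difference itself in the fit of 24 libraries (edgeR, adjusted p below 0.05, as for 69.3% of all genes). *VIM* differed by -3.40 on the log2 scale, *KRT18* by -1.28 and *KRT8* by -1.21. These 3 were called lower in LoVo, and *KRT8* and *KRT18* were called higher in 2 clones each. *NES*, called higher in each clone, differed by -0.787, and *KRT80*, called in neither line, by -0.493. *KRT7* differed by 5.62 and *KRT81* by 2.65, both at few counts in MDST8. *KRT23* had a fitted difference of 9.63, which rests on clones with 0 to 6 counts per library and has no usable error, so its call is no support. *KRT7*, *KRT23* and *KRT81* passed the filter in LoVo only. *KRT19* was not called, at 0.77 (adjusted p = 0.176). The LoVo labels run against the TWIST1 counts, so the direction and size of each difference hold for the labels only. With the direction of LoVo turned, *KRT80* differed by 0.030 (adjusted p = 0.87) and *KRT8* and *KRT18* by 0.38 and 0.62. No group had more than 3 libraries, so no single library was tested as an outlier.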

How the results depend on the processing

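Of the values for single genes under the alternatives, 595 of 615 kept their direction and their side of the threshold. Of the other 20, 15 changed sign, 8 of them with the direction of LoVo turned, and 5 were the *KRT34* values of the clones on the scale of limma with log2(RPM + 1). In the replicate block, with the library letter as a block, 1, 3, 1, 2 and 2 genes were called in clones 1.1, 2.2, 3.2, 3.5 and 3.6 and 3 among the clones, as without it. Same-lettered libraries deviated together with correlations of -0.106 to 0.12, so the letters share only a name. Leaving out each library gave 6 calls in LoVo every time, *KRT34* counted, and 3 to 4 among the clones, where *NES* was the one gained. Without a filter the counts became 2, 3, 2, 3 and 3 in clones 1.1, 2.2, 3.2, 3.5 and 3.6 and 5 among the clones, because *KRT81* and, among the clones, also *KRT7* were then tested. With peaks of p at most 0.001, 3 genes in MDST8 and 1 in LoVo had a promoter peak (23.2% and 17.3% of protein-coding genes), and with q at most 0.05 the counts were 0 and 0 (0.469% and 0.359%).

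The direction of the LoVo comparison was turned in an alternative chosen after seeing the data, since TWIST1 counts run against the labels. The difference between LoVo and the clones then became 3.09 for *VIM*, -4.91 for *KRT7*, 0.38 for *KRT8*, 0.62 for *KRT18*, -0.063 for *KRT19*, -7.33 for *KRT23*, 6.67 for *KRT34* and 0.030 for *KRT80*, each with the sign changed. The *KRT34* value is a description without a test. *KRT80* (adjusted p = 0.87) and *KRT23* lost their calls, while 10996 of the 15844 genes tested were called.

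Elsewhere values near 0 changed sign and were called under no setting. *KRT8* in clone 1.1 became 0.0064 on the log2 scale with limma on log2(count + 1), -0.086 to 0.060 without 1 library at a time, among them 0.0031 without WT replicate B, and 0.03 without clone 1.1 replicate C. *KRT81* in LoVo became -0.015 without a filter and ran from -0.064 to 0.18 without 1 library at a time, and *KRT23* between the lines became -0.44 without WT replicate B. The cause was not tested. Limma on log2(count + 1) without library size scaling put the median of all genes at 0.128 in clone 3.6, where it was 0.00278 with edgeR and TMM. Depth limits *KRT7*, *KRT19*, *KRT23* and *KRT81* in MDST8, which had at most 33 counts per library.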
